A study of Mus musculus with 22 samples.

Results

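A set of 10 genes of the unfolded protein response and the integrated stress response was followed in mouse mammary tissue that carried newly engrafted cancer cells. They were chosen by symbol, 10 of the 52526 symbols in the deposited table: Hspa5, Hsp90b1, Dnajb9, Herpud1, Atf4, Xbp1, Ddit3, Trib3, Asns and Chac1. Every one of the 10 was above the deposited floor of 1 CPM in at least 5 of the 22 mice, so all were tested, among 15138 genes that met this filter. All mice were female C57BL/6J, 7 to 8 weeks old at the start, and for 2 weeks each had either a running wheel on its hub (wheel) or the hub alone (control). All then received EO771 cells, a mammary cancer line that grows in this strain and here carried firefly luciferase, in the left inguinal mammary fat pad. Liposomes holding clodronate, which kills phagocytes that take it up, or phosphate-buffered saline (PBS) were given by vein 24 hours before engraftment and again with it, and the tissue was taken 24 hours after engraftment. The groups held 6 control mice with PBS, 6 wheel mice with PBS, 5 control mice with clodronate and 5 wheel mice with clodronate, 1 library for each mouse. The study asked how wheel running alters the tissue that receives the cells, with hypoxia genes as its main readout. The stress genes answer a neighbouring question, whether either treatment moved the cell's response to misfolded protein or to a lack of amino acids.

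The endoplasmic reticulum (ER) folds secreted and membrane proteins, and misfolded protein there sets off 3 sensors, which belong to the kinases IRE1 (Ern1) and PERK (Eif2ak3) and to the membrane-bound factor ATF6. IRE1 splices the Xbp1 message, ATF6 is cut to release a transcription factor, and both factors raise chaperone genes. PERK is 1 of the kinases that phosphorylate eIF2alpha. Lack of amino acids, lack of haem and the presence of double-stranded RNA act through the others, and all of them slow protein synthesis while letting Atf4 be translated. ATF4 protein then raises genes for amino acid synthesis and transport and, under lasting stress, Ddit3, which encodes CHOP. Much of the control of ATF4 and XBP1 lies in translation and splicing, which reads from the 3' end of messages do not show, and these libraries cannot separate the spliced and unspliced forms of Xbp1.

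The promoters of 5 of the genes are shown because they hold the response elements of these pathways, or, for Atf4, because its level moved with that of Hspa5, which holds them. Each is 300 bases from RefSeq on GRCm38.p6, 250 before the start site and 50 after, read 5' to 3' along the gene, and capitals mark the elements found. Positions of elements count from this RefSeq start site. The chromosome positions of whole genes given below come from the GENCODE annotation, whose gene starts can differ from it.
Hspa5, chr2:34771840-34772139, forward strand: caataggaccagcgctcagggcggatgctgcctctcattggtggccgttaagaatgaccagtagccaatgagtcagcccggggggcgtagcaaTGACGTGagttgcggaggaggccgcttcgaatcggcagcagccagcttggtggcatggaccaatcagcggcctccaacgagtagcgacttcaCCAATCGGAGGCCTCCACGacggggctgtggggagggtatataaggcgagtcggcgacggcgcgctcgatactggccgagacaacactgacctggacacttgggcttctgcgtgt
Hsp90b1, chr10:86705395-86705694, reverse strand: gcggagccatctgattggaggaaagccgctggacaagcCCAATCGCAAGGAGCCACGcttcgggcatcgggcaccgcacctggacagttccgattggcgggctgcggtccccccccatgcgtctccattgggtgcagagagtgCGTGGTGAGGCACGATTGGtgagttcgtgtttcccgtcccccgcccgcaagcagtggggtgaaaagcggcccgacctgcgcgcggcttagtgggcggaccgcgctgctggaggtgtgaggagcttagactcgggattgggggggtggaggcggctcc
Herpud1, chr8:94386179-94386478, forward strand: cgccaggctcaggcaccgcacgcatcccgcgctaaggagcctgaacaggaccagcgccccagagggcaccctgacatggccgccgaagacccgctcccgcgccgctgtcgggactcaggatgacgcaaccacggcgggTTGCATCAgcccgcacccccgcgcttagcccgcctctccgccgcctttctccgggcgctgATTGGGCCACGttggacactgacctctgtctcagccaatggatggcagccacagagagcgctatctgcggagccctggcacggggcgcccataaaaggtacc
Trib3, chr2:152344011-152344310, reverse strand: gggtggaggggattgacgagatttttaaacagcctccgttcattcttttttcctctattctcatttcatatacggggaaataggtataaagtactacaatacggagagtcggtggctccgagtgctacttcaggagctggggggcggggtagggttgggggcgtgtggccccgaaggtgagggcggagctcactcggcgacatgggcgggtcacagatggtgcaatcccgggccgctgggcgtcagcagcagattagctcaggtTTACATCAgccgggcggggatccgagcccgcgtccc
Atf4, chr15:80254934-80255233, forward strand: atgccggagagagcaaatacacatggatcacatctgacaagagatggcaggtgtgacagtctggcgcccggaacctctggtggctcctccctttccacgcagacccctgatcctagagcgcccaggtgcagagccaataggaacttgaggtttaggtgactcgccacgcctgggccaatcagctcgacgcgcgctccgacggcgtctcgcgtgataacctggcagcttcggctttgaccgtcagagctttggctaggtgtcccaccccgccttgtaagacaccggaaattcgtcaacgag
The ER stress response element, searched as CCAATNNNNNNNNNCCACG on both strands, was found in 39 of 32544 promoters of this length (0.12%). Hspa5 held it once, at -65 to -47 from the start site. Hsp90b1 held it at -212 to -194 and at -107 to -89. The related element ERSE-II (ATTGG, any 1 base, then CCACG, on both strands) was found in 12 promoters (0.0369%), and Herpud1 held it at -52 to -42. The XBP1 and ATF6 element, searched by its core TGACGTG, was found in 659 promoters (2.02%), among them Hspa5 at -157 to -151. The C/EBP-ATF response element that ATF4 binds, searched as TGATGNAA, was found in 1273 promoters (3.91%). It lay at 15 to 22 in Trib3, at -112 to -105 in Herpud1, at -23 to -16 in Asns and at -193 to -186 in Chac1. The letters of these elements were not in the windows of Atf4, Ddit3, Xbp1 and Dnajb9.

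Library depth was 13256467 to 20484578 reads, of which 57.2 to 64.5% were assigned to genes. The libraries were made from the 3' end of each message, so that a message gives reads in about the same number whatever its length, and levels in CPM (reads of a gene scaled to the reads of the whole library) can be set side by side between genes. Fat markers were high (Adipoq 865 to 2656 CPM) and epithelial markers were present (Krt18 34.9 to 213 CPM, Epcam 34.4 to 111 CPM), while the milk genes Wap and Csn2 were listed at the floor in all 22 mice. A score of 12 lymphocyte markers was over 2 in 5 mice, namely mouse 2 of the control PBS group, mouse 3 of the wheel PBS group and mice 3, 4 and 5 of the wheel clodronate group. Fits without these 5 mice kept only mice 1 and 2 of the wheel clodronate group. Skeletal muscle RNA differed widely too, with Ckm from 1.38 to 3264 CPM. Tissue RNA held both host and engrafted mouse cells, which these reads cannot separate.

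The chaperone genes stood highest. Over the 22 mice the median was 279 CPM for Hspa5 and 195 CPM for Hsp90b1, followed by Xbp1 (84.4 CPM), Atf4 (74.4 CPM), Herpud1 (47.5 CPM), Asns (35.8 CPM), Dnajb9 (15.9 CPM), Ddit3 (15.8 CPM), Trib3 (5.05 CPM) and Chac1 (3.39 CPM). Hspa5 was above Hsp90b1 in 22 of 22 mice, and Asns was above Dnajb9 in 22 of 22. Xbp1 was above Atf4 in 14, and Dnajb9 was above Ddit3 in 9, so neither of those pairs had a fixed order. The spread between mice of 1 group was widest for the lowest genes. The within-group SD on the log2(CPM + 1) scale was 0.28 for Hspa5 and 0.64 for Trib3, against a median of 0.46 over the genes tested. Chac1 had an SD of 0.97, and 94.2% of the genes tested had a smaller one.

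**Figure D1:**
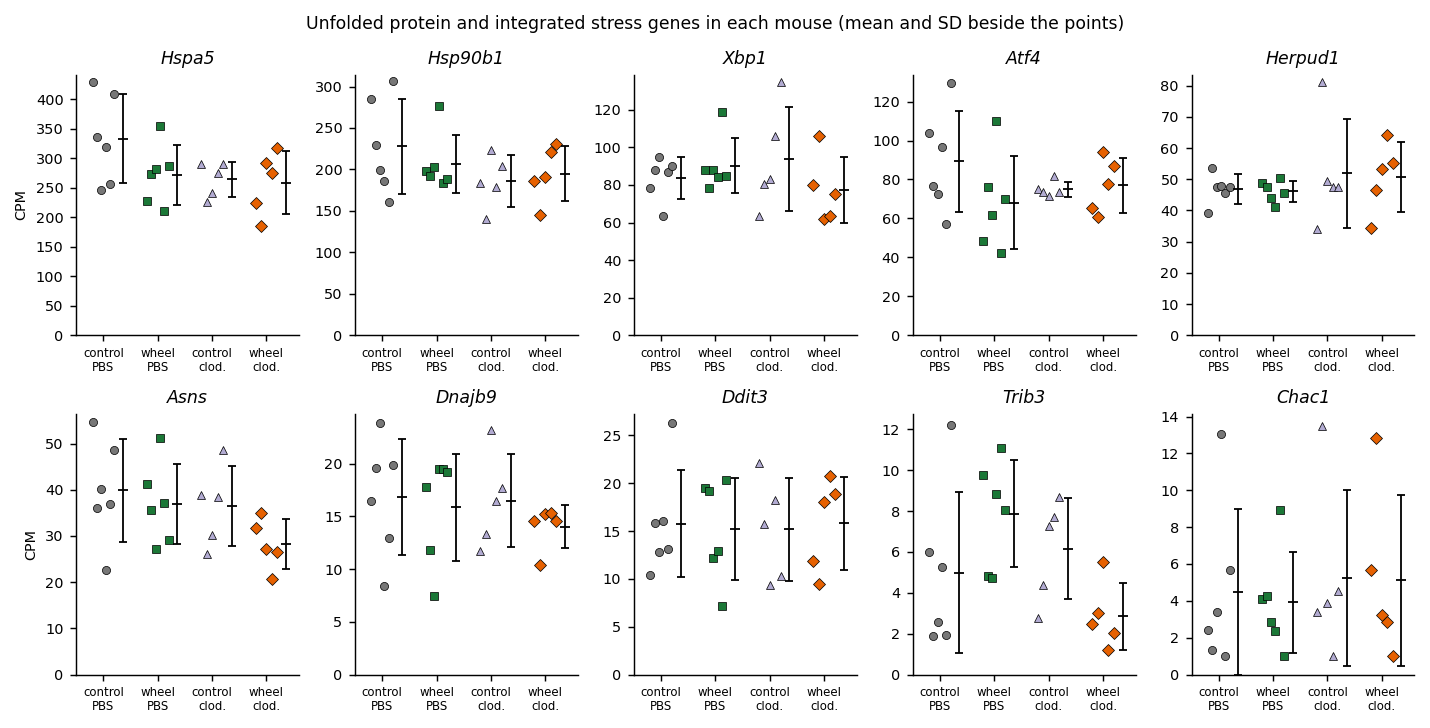
CPM of each of the 10 genes in each mouse, by group (6, 6, 5 and 5 mice), with the mean and SD of each group beside the points and a separate axis for each gene. Groups that differ in 1 factor overlap for every gene, and Trib3 shows the widest separation, between the wheel mice with PBS (4.73 to 11.1 CPM) and with clodronate (1.21 to 5.53 CPM).

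Hspa5, on chromosome 2 (34771970 to 34777547, GRCm38), encodes BiP, the chief chaperone of the ER lumen, which also holds the 3 sensors inactive. In the control PBS group it lay at 246 CPM at the lowest, 328 at the median and 430.0 at the highest. In the wheel PBS group these values were 210.0, 278 and 354 CPM. The 5 control clodronate mice had 290.3, 225, 241, 276 and 289.7 CPM, and the 5 wheel clodronate mice had 224, 186, 293, 276 and 317 CPM. The control PBS group reached highest, with 2 mice above every mouse of the other groups, but all groups overlapped. Its mean was 333 ± 75.9 CPM (SD, n = 6), against 272 ± 50.8 (n = 6) in wheel PBS mice, 265 ± 29.5 (n = 5) in control clodronate mice and 259 ± 53.3 (n = 5) in wheel clodronate mice.

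Hsp90b1 (chromosome 10, 86690209 to 86705509) encodes GRP94, the ER member of the HSP90 chaperones. It ranged from 160.2 through a median of 215 to 306 CPM in control PBS mice, and from 183 through 195 to 276 CPM in wheel PBS mice. The control clodronate mice had 183, 139.7, 223, 179 and 204 CPM, and the wheel clodronate mice 186, 146, 191, 221 and 231 CPM. These groups overlapped as well. Its exons overlap those of Gm15344 and Gm25745 on the same strand and 1810014B01Rik on the other. Ambiguous reads were listed apart from the genes (0.484 to 0.615% of a library), so reads there may be missing from its level. Dnajb9 (chromosome 12, 44205559 to 44210326), a co-chaperone that holds IRE1 inactive with BiP, lay between 7.44 and 23.9 CPM. The 3' end of Dnajb9 nearly matches that of Gm6568. Multimapping reads were listed apart from the genes, so its level may be understated. Herpud1 (chromosome 8, 94386438 to 94395377), which helps assemble the complex that sends ER proteins to the proteasome, lay between 34.1 and 81.2 CPM. Its group means were 46.8 ± 4.68 (n = 6), 46.2 ± 3.36 (n = 6), 51.9 ± 17.5 (n = 5) and 50.7 ± 11.2 CPM (n = 5) in control PBS, wheel PBS, control clodronate and wheel clodronate mice.

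Among the transcription factors, Atf4 (chromosome 15, 80255184 to 80257541) lay at 57.0, 86.7 and 129.5 CPM at the lowest, median and highest in control PBS mice. In wheel PBS mice it lay at 42.4, 65.8 and 110.0 CPM. The control clodronate mice were close together at 75.2, 73.6, 71.5, 81.6 and 73.3 CPM, and the wheel clodronate mice had 65.4, 60.8, 93.9, 77.9 and 87.0 CPM. The PBS groups were thus the more spread for Atf4, and both of them enclosed the control clodronate mice. Xbp1 (chromosome 11, 5520659 to 5525893) lay between 62.0 and 135 CPM, with both ends in the clodronate groups. Ddit3 (chromosome 10, 127290829 to 127293753), whose product CHOP favours cell death under lasting stress, lay between 7.18 and 26.3 CPM, and its group means were 15.2 to 15.8 CPM. The annotation lists a second gene of the name Ddit3 at an overlapping place, and the table held 1 entry.

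Trib3, Asns and Chac1 are targets of ATF4 or CHOP. Trib3 (chromosome 2, 152337422 to 152344032) encodes a pseudokinase that restrains ATF4 and the kinase AKT. It was low, at 20 to 219 reads in a library. The lowest, median and highest were 1.89, 3.91 and 12.2 CPM in control PBS mice and 4.73, 8.45 and 11.1 CPM in wheel PBS mice. The control clodronate mice had 2.78, 4.39, 7.25, 7.72 and 8.68 CPM, and the wheel clodronate mice had 2.48, 3.01, 5.53, 1.21 and 2.02 CPM. Only 1 of the 5 wheel clodronate mice reached the range of the wheel PBS mice. Asns (chromosome 6, 7675169 to 7693254), which makes asparagine, lay between 20.7 and 54.7 CPM, with means of 39.9 ± 11.1 (n = 6), 36.9 ± 8.74 (n = 6), 36.4 ± 8.71 (n = 5) and 28.2 ± 5.47 CPM (n = 5) in control PBS, wheel PBS, control clodronate and wheel clodronate mice. Chac1 (chromosome 2, 119351229 to 119354381), which breaks down glutathione, lay from the floor of 1 CPM, in 1 mouse of each group, to 13.5 CPM.

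Wheel running was compared first within PBS liposomes, with limma on log2(CPM + 1) and Benjamini-Hochberg adjustment over all 15138 genes. None of the 10 genes passed an adjusted p of 0.05, and the share called over all genes was 0%. The 2 groups overlapped for all 10, and they did not for 0.264% of all genes. At an unadjusted p of 0.05 the count was 0 of 10, against 744 of all genes (4.91%). Atf4 had a mean of 68.1 ± 24.1 CPM (n = 6) in wheel mice and 89.4 ± 25.9 (n = 6) in control mice, a difference of -0.41 (log2, SE 0.20, 95% interval -0.82 to 0.00, limma adjusted p = 0.987). Hspa5 differed by -0.28 (SE 0.16, interval -0.61 to 0.05), with the same adjusted p from limma. Trib3 stood the other way, at 0.74 (SE 0.37, interval -0.02 to 1.51). Its unadjusted p from limma fell under 0.05 with other scaling. It was at 0.83 after scaling to the upper quartile (unadjusted p = 0.0300, adjusted p = 0.999 from limma). Scaled to the reads assigned to genes, Trib3 was at 0.77 (unadjusted p = 0.0492 from limma). The other 7 genes differed by -0.12 to 0.11, and the interval for Chac1 ran from -1.06 to 1.09. The 3 values that stand out lie on both sides of 0. Of the 10 genes, 7 were lower in wheel mice, but so were 63.8% of all genes tested, whose median was itself -0.085. After scaling to the upper quartile 3 were lower, beside 50.2% of all genes. In bulk tissue, fewer cells of a type and less RNA in each cell cannot be told apart.

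Within clodronate liposomes, 0 of the 10 genes passed the adjusted threshold (0.00661% of all genes), and at an unadjusted p of 0.05 Trib3 alone did, against 10.4% of all genes. The groups overlapped for all 10 genes, and did not for 1.27% of all genes. Trib3 was at 2.85 ± 1.64 CPM (SD, n = 5) in wheel mice and at 6.17 ± 2.48 CPM (n = 5) in control mice. The difference was -0.91 (log2, SE 0.40, interval -1.75 to -0.07), with a limma adjusted p = 0.419 and an exact two-sided permutation p = 0.0476, where 252 splits of 5 against 5 allow no value under 0.00794. Asns differed by -0.35 (interval -0.80 to 0.11) and Xbp1 by -0.25 (interval -0.63 to 0.12), and without the 5 mice with lymphocyte RNA these were -0.091 and 0.021. The latter values rest on mice 1 and 2 alone in the wheel clodronate group. The other 7 genes differed by -0.20 to 0.07.

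Clodronate was compared with PBS in control mice. None of the 10 genes was called (0% of all genes), and 0 of 10 passed an unadjusted p of 0.05, which 6.99% of all genes did. The chaperones had the lowest values, Hspa5 at -0.31 (log2, SE 0.17, interval -0.66 to 0.04, limma adjusted p = 0.739, exact permutation p = 0.0996) and Hsp90b1 at -0.27 (interval -0.62 to 0.07). Trib3 differed by 0.41 (interval -0.39 to 1.21). The remaining 7 genes lay between -0.20 and 0.23, beside a median of -0.10 over all genes.

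In wheel mice the same comparison gave the largest difference of Trib3 within a group of the other factor. Wheel clodronate mice had 2.85 ± 1.64 CPM (SD, n = 5) and wheel PBS mice 7.88 ± 2.60 CPM (n = 6), a ratio of 0.362. The difference was -1.24 (log2, SE 0.39, interval -2.04 to -0.44), and the limma adjusted p = 0.223 missed the threshold. The exact two-sided permutation p was 0.0130, and 462 splits allow no value under 0.00433. None of the 10 genes was called (0.00661% of all genes), and Trib3 was the 1 gene under an unadjusted p of 0.05, which 11.6% of all genes were. Asns differed by -0.37 (SE 0.21) and Xbp1 by -0.24 (-0.19 and 0.034 without the mice with lymphocyte RNA), while the other 7 lay between -0.11 and 0.22.

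Averaged over liposomes, all 10 genes had a value below 0 in wheel mice (57.3% of all genes). Among them, Ddit3 at -5.8e-05, Herpud1 at -0.012 and Chac1 at -0.013 hardly differed from 0. After scaling to the upper quartile, 6 were lower (51.2%). None was called (0% of all genes) or had an unadjusted p under 0.05 (8.09% of all genes). The differences farthest from 0 were -0.22 for Asns, -0.19 for Atf4 and -0.16 for Hspa5. Without the 5 mice with lymphocyte RNA they were -0.059, -0.34 and -0.32, and Hspa5 then had an unadjusted p = 0.0399 and an adjusted p = 0.715 from limma. Averaged over activity, clodronate called 0 of the 10 (0.205% of all genes), and 0 had an unadjusted p under 0.05 (10.4%). Trib3 was at -0.42, Asns at -0.24, Hspa5 at -0.19 and Hsp90b1 at -0.18. Without those mice Hspa5 was at -0.34 (unadjusted p = 0.0326 and adjusted p = 0.359 from limma) and Hsp90b1 at -0.29. The interaction, which asks whether wheel running acted differently under the 2 liposomes, called 0 of the 10 (0% of all genes), and 1 had an unadjusted p under 0.05 (7.58%). Trib3 had the largest interaction, -1.65 (log2, SE 0.55, interval -2.79 to -0.52), with an unadjusted p = 0.0062 and an adjusted p = 0.603 from limma. Without the 5 mice with lymphocyte RNA, Trib3 differed by 0.69 and -0.86 between wheel and control mice under PBS and clodronate, by -1.31 between liposomes in wheel mice, and by -1.55 in the interaction. The sign of Trib3 was therefore the same with and without those mice. The fit without them kept only mice 1 and 2 of the wheel clodronate group, at 2.48 and 3.01 CPM of Trib3. These 7 comparisons draw on the same 4 groups and share mice.

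**Figure D2:**
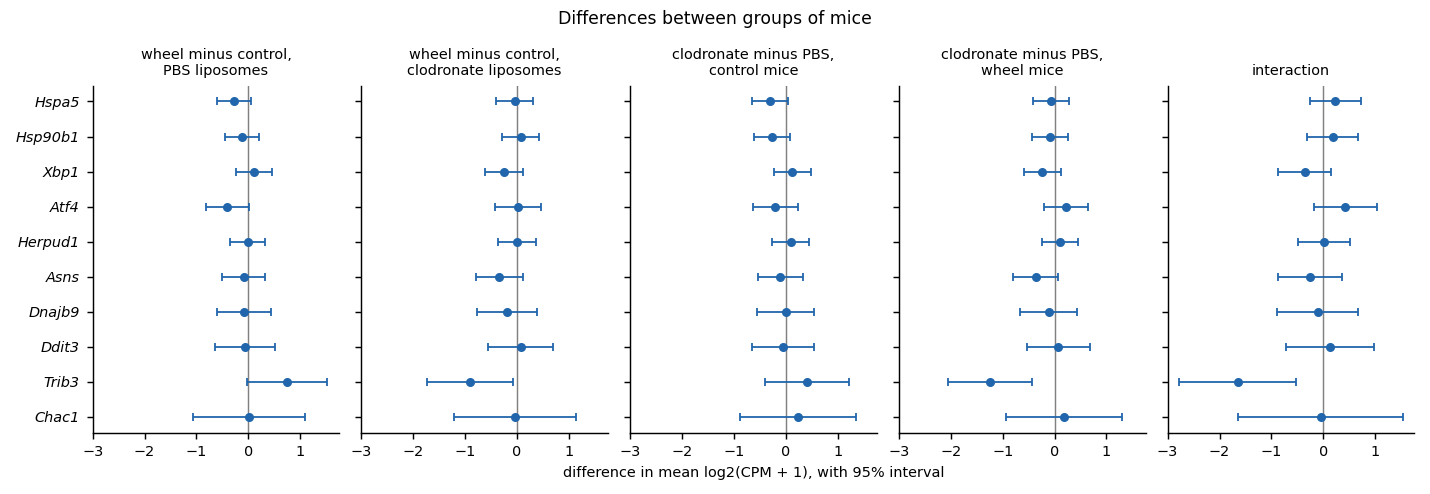
Difference in mean log2(CPM + 1) of each gene in 4 comparisons within 1 factor and in the interaction, with bars for the 95% interval from limma. Most bars cross 0, and the exceptions belong to Trib3, with -0.91 between wheel and control mice under clodronate, -1.24 between liposomes in wheel mice and -1.65 in the interaction.

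The wider pathway was read from 90 other genes in 9 lists, of which 88 were tested and Derl3 and Fgf21 were not. None of the 88 was called in any of the 7 comparisons. Between wheel and control mice under PBS, 71 of 88 were lower, with a median of -0.18 beside -0.085 for all genes, and 55 were lower after scaling to the upper quartile. Of all genes, 63.8% were lower, and 50.2% after that scaling. At an unadjusted p of 0.05, 1 was higher and 9 were lower (4.91% of all genes in either direction). The aminoacyl-tRNA synthetase gene Nars was at 59.6 ± 13.3 CPM (n = 6) in wheel mice and 85.8 ± 12.9 (n = 6) in control mice, a difference of -0.53 (limma adjusted p = 0.961). The synthetase Eprs differed by -0.45 and Eif2s1, the eIF2alpha subunit itself, by -0.55, while the sensor Ern1 differed by 0.62, Ddit4 by 0.29 and the disulphide isomerase Pdia3 by 0.18. Under clodronate, 47 of 88 were lower (49.3% of all genes). The ubiquitin ligase Syvn1 differed by 0.81, the signal peptidase subunit Sec11c by 0.59 and the amino acid sensing kinase Eif2ak4 by 0.71, while the synthetase Lars differed by -0.58, the segregase Vcp by -0.31 and the degradation adaptor Sel1l by -0.28.

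Clodronate was set against PBS in the same lists. In control mice, 74 of 88 were lower (65.4% of all genes), with 61 after upper-quartile scaling (51.1%). At an unadjusted p of 0.05, 0 were higher and 12 lower (6.99% of all genes in either direction). Eif2s1 lay at 11.7 to 15.8 CPM with clodronate and at 19.0 to 33.4 CPM with PBS, without overlap, a difference of -0.81 (limma adjusted p = 0.239). Its interaction was 0.66 (unadjusted p = 0.0139 and adjusted p = 0.625 from limma), so the difference between liposomes was smaller in wheel mice. The ER degradation channel gene Derl1 differed by -0.61 and the translocon gene Ssr2 by -0.41, while Ddit4 differed by 0.55, the phosphatase subunit Ppp1r15a by 0.35 and Vldlr by 0.20. In wheel mice, 57 of 88 were lower (49.9% of all genes), and Derl1 lay at 62.5 to 85.9 CPM against 86.7 to 114 CPM, again without overlap (-0.46, limma adjusted p = 0.273). Groups did not overlap for 1.26% of all genes in that comparison and for 0.634% in control mice. Sel1l differed by -0.34 and P4hb, a disulphide isomerase, by -0.39, while the proline synthesis gene Aldh18a1, at 1 to 2.15 CPM with PBS and 1 to 7.71 with clodronate, differed by 1.00, Creld2 by 0.70 and Sec11c by 0.42. Averaged over activity, Derl1 came nearest to the threshold at -0.54 (limma adjusted p = 0.0512). At an unadjusted p of 0.05 the higher and lower counts of the 88 were 3 and 1 for wheel running under clodronate (10.4% of all genes in either direction), 1 and 7 for clodronate in wheel mice (11.6%), 0 and 7 for wheel running averaged (8.09%), 0 and 14 for clodronate averaged (10.4%), and 3 and 0 for the interaction (7.58%).

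The genes were next compared with each other across mice of 1 group. For each gene the slope of every other gene on its level was fitted with the 4 group means, in log2(CPM + 1) for each unit of log2(CPM + 1), so that differences between groups did not enter. With Hspa5, 798 of 15137 other genes were called (5.27%, or 3.44% rising), and 2 of the other 9 stress genes were. Atf4 rose with Hspa5 at 1.09 (SE 0.18, limma adjusted p = 0.00509), and stood at place 9 of all genes by its statistic. Hsp90b1 rose at 0.79 (SE 0.17, limma adjusted p = 0.0110), at place 120. Chac1 had a slope of -1.47 (limma adjusted p = 0.210). With Hsp90b1 as the level, Hspa5 rose at 0.79 (adjusted p = 0.0187 from limma, with 1.7% of genes called, 1.55% rising). With Atf4 as the level, Hspa5 rose at 0.66 (adjusted p = 0.0332 from limma, with 0.476% called, 0.469% rising), and Hsp90b1 stood at 0.52 (adjusted p = 0.0921). These calls of Hspa5 were lost without the 5 mice with lymphocyte RNA, at slopes of 0.72 on Hsp90b1 (limma adjusted p = 0.087) and 0.62 on Atf4 (limma adjusted p = 0.106). They were also lost with the dividing cell score (0.73 and 0.63, limma adjusted p = 0.0609 and 0.108) and with the macrophage score (0.68 and 0.63, limma adjusted p = 0.222 and 0.422), and the call on Atf4 after scaling to the upper quartile (0.66, limma adjusted p = 0.0711). None of the other members was called with Ddit3 (0.0132% of genes called), Chac1 (2.97%), Trib3, Xbp1, Dnajb9, Herpud1 or Asns (0% each). Xbp1 and the XBP1 and ATF6 targets Dnajb9 and Herpud1 were thus not called with Hspa5.

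**Figure D3:**
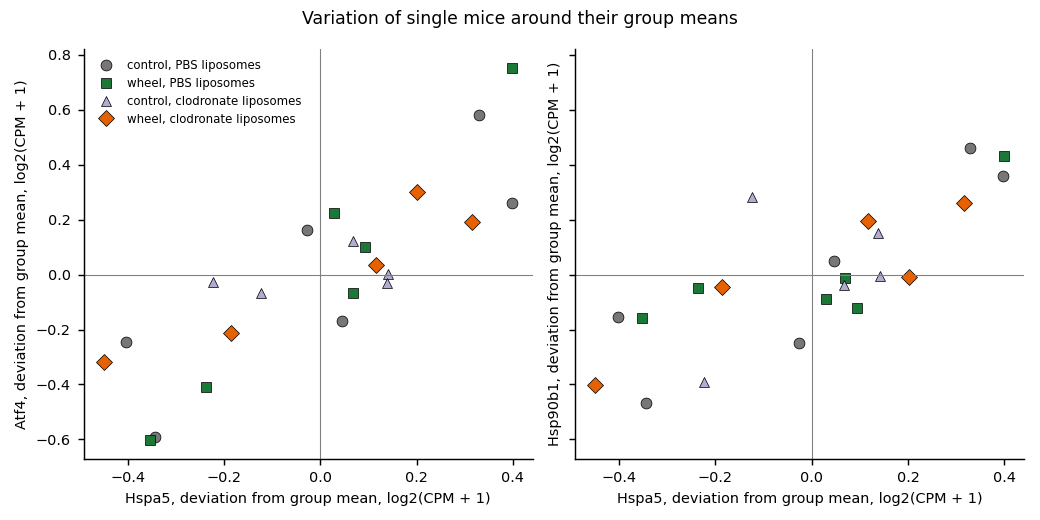
Deviation of Atf4 and of Hsp90b1 from the group mean against that of Hspa5, in log2(CPM + 1), 1 point for each of 22 mice with the group marked. Both rise with Hspa5, with slopes of 1.09 for Atf4 and 0.79 for Hsp90b1.

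Other pathway genes moved with Hspa5 as well. Of the 88, 11 were called, all rising, and 67 had a positive slope. Their median slope was 0.34, beside 0.11 for all genes, of which 58.0% were positive. The count of 11 was 0 without the 5 mice with lymphocyte RNA and 0 with the macrophage score in the fit, and 3 without mouse 4 of the wheel PBS group. The chaperones gave 4 of 17: Pdia3 at 0.87, the lectin chaperones Calr at 0.66 and Canx at 0.54, and Pdia4. The tRNA synthetases gave 4 of 12: Aars at 1.16, Gars at 0.83, Sars at 0.81 and Lars at 1.06. The amino acid genes gave 2 of 14, the mitochondrial folate enzyme Mthfd2 at 2.90 (limma adjusted p = 0.00743) and the arginine transporter Slc7a1 at 2.21. Gdf15, a stress hormone, was the 1 of 8 among other targets of ATF4 or CHOP, at 2.10. It was near the floor, at 1 to 7.53 CPM with a median of 1.25 CPM. None was called among 12 genes of ER-associated degradation, 11 of ER entry, 6 of eIF2alpha kinases and phosphatase subunits, 3 sensors or 5 stress transcription factors.

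**Figure D4:**
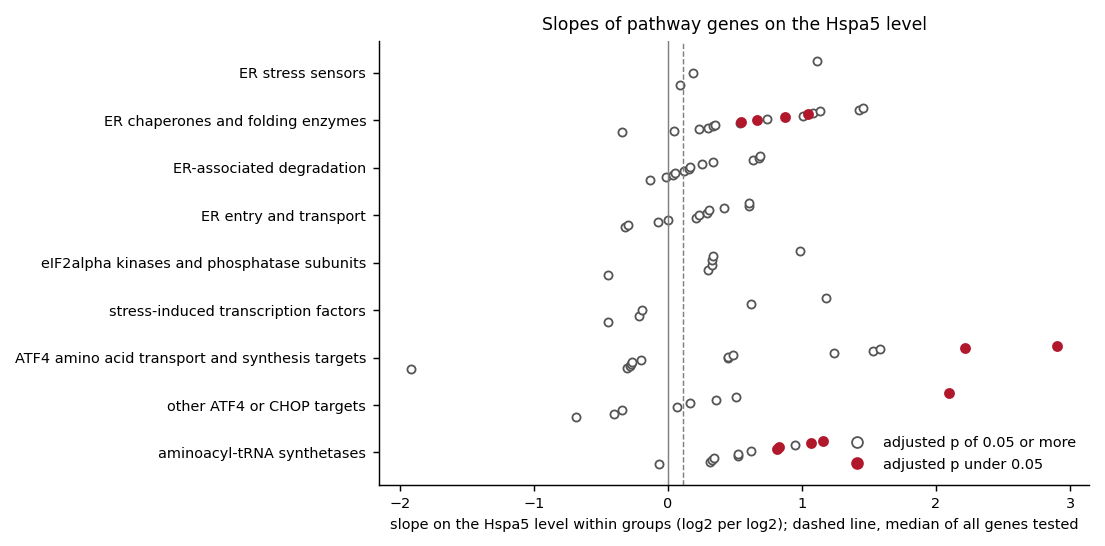
Slope of each of the 88 pathway genes on the Hspa5 level within groups, in log2(CPM + 1) for each unit of log2(CPM + 1), by list, with called genes filled in red and the median of all genes as a dashed line. The 11 called genes lie in 4 of the 9 lists, from 0.54 for Canx to 2.90 for Mthfd2.

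Markers of cell types moved with Hspa5 too. Only the macrophage and the dividing cell scores were added to the fit of these slopes, and another fit left out the mice with lymphocyte RNA. The part of skeletal muscle RNA in these slopes was not tested. Of 10 macrophage markers, all had a positive slope and Cd68 and C1qb were called. Their summed level was 259.8 to 700.1 CPM in control PBS mice, 292 to 682 in wheel PBS mice, 307 to 445 in control clodronate mice and 286 to 744 in wheel clodronate mice, and none was at the floor. Of 7 genes of dividing cells, all were positive and Cenpf and Ccna2 were called, with summed levels of 12.3 to 314 CPM over the mice. Of 9 skeletal muscle genes, 7 were called falling, with sums from 20.5 to 24417 CPM. Of 12 lymphocyte markers, all were positive and 0 were called. With the macrophage score in the fit, the slopes were 0.91 for Atf4 (limma adjusted p = 0.0694) and 0.66 for Hsp90b1 (limma adjusted p = 0.118), beside 1.09 and 0.79 without it, and neither was called (0.271% of all genes). With the dividing cell score, 4 of the 9 were called, Atf4, Chac1, Ddit3 and Hsp90b1, and so were 11.2% of all genes. In the fit without that score, Chac1 had a negative slope of -1.47 and Ddit3 a positive slope of 0.74, and neither was called. Without the 5 mice with lymphocyte RNA, the slope of Atf4 was 1.20 (adjusted p = 0.0496) and that of Hsp90b1 was 0.83 (limma adjusted p = 0.0973), with 0.0925% of all genes called. None of the 10 genes was called with any of 11 marker scores. The share of all genes called was 6.29% for adipocyte, 4.51% for dividing cell, 2.65% for endothelium, 0.0859% for fibroblast, 6.25% for immediate early, 7.08% for lymphocyte, 0.35% for macrophage, 2.39% for mammary epithelium, 2.22% for neutrophil, 6.24% for plasma cell and 4.93% for skeletal muscle markers. Ddit3 with the immediate early score came nearest (-0.67, limma adjusted p = 0.0675), and that list holds Atf3, a partner of the same pathway. Close behind, with the dividing cell score, were Atf4 (0.18, limma adjusted p = 0.0718) and Hsp90b1 (0.14, limma adjusted p = 0.0759). With the skeletal muscle score these were Chac1 (0.20, limma adjusted p = 0.0792) and Hspa5 (-0.063, limma adjusted p = 0.0807). With the macrophage score it was Atf4 (0.55, limma adjusted p = 0.0942).

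Single mice stood out over several genes. Mouse 6 of the control PBS group was above the 22-mouse median for 9 of the 10 genes and had the highest value of 4, Hsp90b1, Ddit3, Atf4 and Trib3. Mouse 1 of that group had the highest Hspa5 and Asns. Mouse 1 of the wheel clodronate group was above the median for 1 gene.

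Chac1 followed a different set of genes. With its level, 449 genes were called (2.97%), and those most alike were Cwh43 (slope 1.02) and the hair keratin-associated gene Krtap3-2 (1.40), with Casp14 and Gsdma of the skin surface near them. The medians of Cwh43 and Krtap3-2 were near the floor, at 1.15 and 1.62 CPM. Epidermis genes were therefore summed, a list chosen after these values were seen. The 3 mice with the highest Chac1, at 13.0, 13.5 and 12.9 CPM, had epidermis sums of 3494, 11413 and 6509 CPM. The 4 mice with Chac1 at the floor had at most 301 CPM. The mouse with the highest sum, 12612 CPM, had 3.91 CPM of Chac1, so the order was not strict. Leaving out any 1 of 4 mice, namely mouse 5 of the wheel PBS group, mice 2 and 4 of the control clodronate group and mouse 2 of the wheel clodronate group, left 0 genes called with Chac1. Skeletal muscle markers moved with Chac1 as well: all 9 had a positive slope, from 1.28 to 1.81, and Myh1 was called (limma adjusted p = 0.0423). Of the 3 mice with the highest Chac1, 2 had the highest muscle scores of the 22, and the third, mouse 4 of the control PBS group, did not, at 3.31 on the mean log2(CPM + 1) scale beside at least 9.84 in the other two. The part of epidermal and of muscle RNA in the level of Chac1 was not tested.

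**Figure D5:**
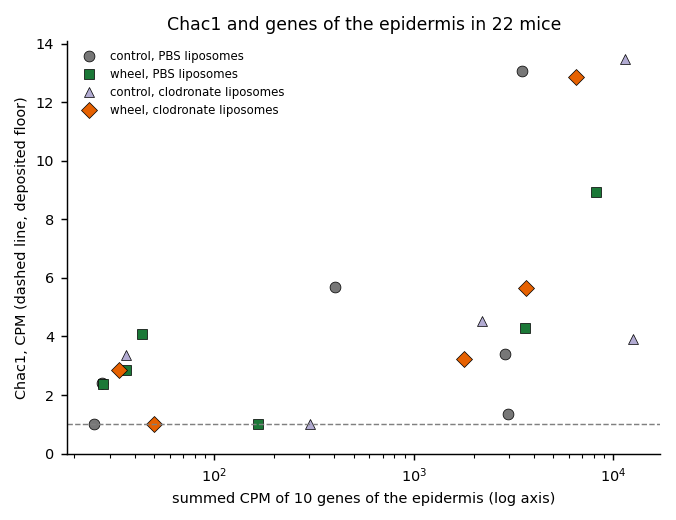
Chac1 in CPM against the summed CPM of 10 epidermis genes (log axis), 1 point for each of 22 mice with the group marked and the floor of 1 CPM dashed. The 4 mice with Chac1 above 8 CPM have sums of 3494 to 11413 CPM, and the 4 mice at the floor have sums of at most 301 CPM.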

How the data were processed

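Mammary RNA was sequenced from the 3' end (QuantSeq) in 22 mice, and groups came from the sample labels. The authors deposited a signal in CPM for each gene, scaled to all reads of a library, with unmapped (4.13 to 8.66%), multimapping (16.6 to 19.9%) and unassigned reads in the total, and with values under 1 set to 1. The floor stands for up to 13 to 20 reads. The submitters' processing notes name STAR 2.5.3a and GRCm38. The annotation and the settings of the counting are not given in the sources used here. Columns of no sample numbered 0.

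Values were tested as log2(CPM + 1) with limma 3.58.1 in R 4.3.3, as 4 group means with a variance trend, on genes that 5 mice or more had over the floor, two-sided, with Benjamini-Hochberg adjustment at 0.05. The pseudocount understates changes of low genes. Exact permutation tests used scipy 1.17.1. Slopes on a gene's level used the same fit plus that level, and were added after the data were seen. The fit was tested on simulated data. The named genes are the 10 genes and, for each comparison, pathway genes under the adjusted threshold or else the 3 higher and the 3 lower with the smallest p. The pathway lists cover sensors, chaperones, ER-associated degradation, ER entry, eIF2alpha kinases, stress factors, amino acid genes, other ATF4 or CHOP targets and tRNA synthetases. Genes and lists were chosen with earlier results of these data known. Whether the cages or runs of these mice differed is not given in the labels, so p-values rest on the spread between mice. Alternatives covered the pseudocount, low-value filter, scaling, variance trend, samples in the fit, replicate block, marker scores and leaving out mice.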

Additional observations from a re-analysis of the deposited data

Results flagged for a closer look

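The spread within a group was examined for each of the 10 genes in each of the 4 groups, 40 in all, of which chance alone would single out about 2. Dixon's ratio singled out 3 values. Hsp90b1 was at 276 CPM in mouse 4 of the wheel PBS group, with the nearest mouse at 203 CPM. Xbp1 was at 119 CPM in mouse 5 of the same group, with the nearest at 88.0 CPM. Dnajb9 was at 10.4 CPM in mouse 2 of the wheel clodronate group, with the nearest at 14.5 CPM.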

How the results depend on the processing

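None of the 10 genes was called in any of the 7 comparisons under any alternative that was run, or with any 1 mouse left out. Without the 5 mice with lymphocyte RNA, Xbp1 turned from -0.25 to 0.021 between wheel and control mice under clodronate and from -0.24 to 0.034 between liposomes in wheel mice. Only mice 1 and 2 of the wheel clodronate group were left in that fit. With Hspa5 as the level, 2 of the 9 other members were called at first, 1 with the replicate block, 1 without the lymphocyte mice, 1 without the 2 mice farthest from the median, 4 with the dividing cell score and 0 with the macrophage score. Of the 88 pathway genes 11 were called, and 4 with the replicate block, 0 without the lymphocyte mice, 1 without the 2 farthest mice and 0 with the macrophage score. With 1 mouse left out these counts were 2 to 2 and 3 to 12. The lowest count, 3, came without mouse 4 of the wheel PBS group, and it was 4, 5 and 6 without mice 2, 3 and 5 of the wheel clodronate group, and 7 without mouse 1 of the control PBS group or mouse 5 of the wheel PBS group. The slope of Hspa5 was no longer called with the replicate block or without the 2 farthest mice, on Atf4 (0.77 and 0.70, limma adjusted p = 0.0714 and 0.0693) or on Hsp90b1 (0.76 and 0.74, limma adjusted p = 0.0825 and 0.119). The genes called with Chac1, 449 at first, were 828 with the dividing cell score and 0 with the block, without the lymphocyte mice, without the 2 farthest mice or with the macrophage score. Over all genes, those called with Hspa5 went from 798 to between 14 (without the lymphocyte mice) and 1702 (dividing cell score), and to 198 to 1221 with 1 mouse left out. Those called for clodronate averaged over activity went from 31 to between 0 (without the lymphocyte mice) and 97 (dividing cell score), and to 9 to 146 with 1 mouse left out. Those called for wheel running under clodronate went from 1 to at most 12, or 236 with 1 mouse left out, and for clodronate in wheel mice from 1 to at most 14, or 51. The cause was not tested. Deviations of mice with the same replicate number correlated at -0.0751 to 0.181 on average, with single pairs from -0.388 to 0.517. Whether the replicate numbers, used in the replicate block, mark mice handled together is not given in the labels and was not tested. The count model of edgeR on recovered reads was not run, because the floor hides the reads of low genes.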
